A study of Mus musculus with 4 samples.

Results

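The enzymes that build serine from a glycolytic intermediate and pass its carbon to folate were followed as a set of 8 genes. They are Phgdh, Psat1 and Psph for serine synthesis, Shmt1 and Mthfd1 for the cytosolic folate steps, and Shmt2, Mthfd1l and Mthfd2 for the mitochondrial ones. The set was given by name and not by a rule on measured values, but it was chosen with earlier results of these data known. Its 8 genes were found among 35976 gene rows and passed the filter on low counts, which left 16209 genes for testing. The data are read counts per gene from mRNA sequencing of mouse E14 embryonic stem cells, a feeder-independent line kept undifferentiated by the cytokine LIF. There were 2 control libraries (genotype wild type) and 2 libraries in which Lx8-SINE B2, whose name joins a LINE family (Lx8) and a short interspersed repeat family (SINE B2), was knocked down by short hairpin RNA. The strain label of both groups was 12910la. Both groups share 1 description of treatment, in which cells on gelatin in serum with LIF received 1000 ng of the vector pSuper puro and, from 24 h later, puromycin at 1 ug/ml for 3 days. What hairpin the control vector carried is not stated, nor is whether both libraries of each group were grown as separate cultures, and the spread behind every p-value is that among these libraries and may be technical. The titles of the knockdown libraries alone carry the word batch1, so knockdown and any batch cannot be told apart. The targeted RNA itself was not analysed here.

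Serine synthesis branches from glycolysis at 3-phosphoglycerate. PHGDH oxidises it to 3-phosphohydroxypyruvate, PSAT1 transfers an amino group from glutamate to give phosphoserine, and PSPH removes the phosphate to give serine. Serine hydroxymethyltransferase, SHMT1 in the cytosol and SHMT2 in mitochondria, then splits serine into glycine and a carbon unit held by tetrahydrofolate. In mitochondria MTHFD2 oxidises that unit and MTHFD1L releases it as formate, and in the cytosol the trifunctional MTHFD1 reattaches formate to folate for the synthesis of purines, thymidylate and methionine. Many proliferating cells use this route, and how far the cells studied here draw on it was not measured. Several of its genes are textbook targets of ATF4, the transcription factor of the amino acid starvation response.

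Total counts per library were 16383323 to 19867689. Levels below are CPM, library-size-normalised counts scaled by TMM, which corrects for library composition. The 7 markers of embryonic stem cells looked at (Pou5f1, Nanog, Sox2, Zfp42, Esrrb, Dppa5a and Utf1) were detected, with summed levels of 5535 to 6201 CPM in controls, against 4574 to 5185 CPM with knockdown. Fibroblast markers summed to 15.5 and 16.7 CPM in controls, against 5.76 and 8.21 CPM with knockdown, and Postn and Lum among the 8 were at 0 counts in all libraries. The 6 markers of primitive endoderm summed to 12.6 and 18.1 CPM in controls, against 40.3 and 27.5 CPM with knockdown. The groups did not overlap in these sums, but in 2 of the 3 this rested on 1 gene, as sums with each marker left out (computed after seeing the data) showed. Without Thy1 the fibroblast sums overlapped, at 2.22 and 3.74 CPM in controls, against 2.88 and 2.68 CPM. Without Dppa5a the stem cell sums overlapped, at 4765 and 4089 CPM, against 3910 and 4164 CPM. The primitive endoderm sums stayed apart whichever of the 6 markers was left out. Trophectoderm markers (24.9 and 37.0 CPM in controls, 16.2 and 58.1 CPM with knockdown) and neural markers (41.7 and 44.4 CPM, 62.5 and 41.2 CPM) did overlap. The edgeR test called 0 genes of any of these lists. At an unadjusted p of 0.05 it had 4 of 6 primitive endoderm genes higher. Lower at that p were 1 of 3 tested fibroblast genes (Thy1) and 1 of 7 stem cell genes (Dppa5a). Of all tested genes, 11% were higher and 8.58% lower at that p. DESeq2 called Gata6, a primitive endoderm gene, higher and Thy1 and Dppa5a lower, all 3 named after their values were seen. It called 3.89% of all tested genes higher and 3.18% lower, where tested means the 15211 genes with an adjusted p from DESeq2, here and below. The part of these marker differences in the results below was not tested. In cell cultures sequenced in bulk, fewer cells of a type and less RNA per cell cannot be told apart.

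The 8 enzyme genes all had a negative log2 fold change, knockdown over control, as did 49.5% of all tested genes, and the size differed among them. Phgdh, the entry enzyme of serine synthesis, fell 3.03-fold, and Mthfd1l, the mitochondrial formate-releasing synthetase, fell 1.95-fold. These 2 of 8 genes passed a Benjamini-Hochberg adjusted p of 0.05 in edgeR's quasi-likelihood test and 0 of 8 rose, where 0.555% of all tested genes were called lower and 0.876% higher. Psph and Shmt1 had differences of similar size to Mthfd1l without passing, and Shmt2, Mthfd1 and Mthfd2 had smaller ones. In 7 of the 8 genes both knockdown libraries lay below both controls, as in 24.6% of all tested genes, and at an unadjusted p of 0.05 the count was 5 of 8 lower, against 8.58% of all tested genes. The median log2 fold change of the 8 genes was -0.65, beside 0.01 over all tested genes, with values of -0.86 when knockdown replicate 1 was left out and -0.48 when knockdown replicate 2 was. Phgdh was the 1 member called without knockdown 1 (0.65% of all tested genes called lower), without knockdown 2 (0.265%) and with library totals in place of TMM (0.352%). No other member was added by leaving out control 1 (1.15%) or control 2 (1.1%), with 2 called in each. Shmt1 was added with the replicate number as a block (1.41%), and Shmt1 and Psph without a filter on low counts (2.72%). With DESeq2, which called 3.18% of all tested genes lower, 4 members were called lower, namely Phgdh, Psph, Shmt1 and Mthfd1l.

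**Figure D1:**
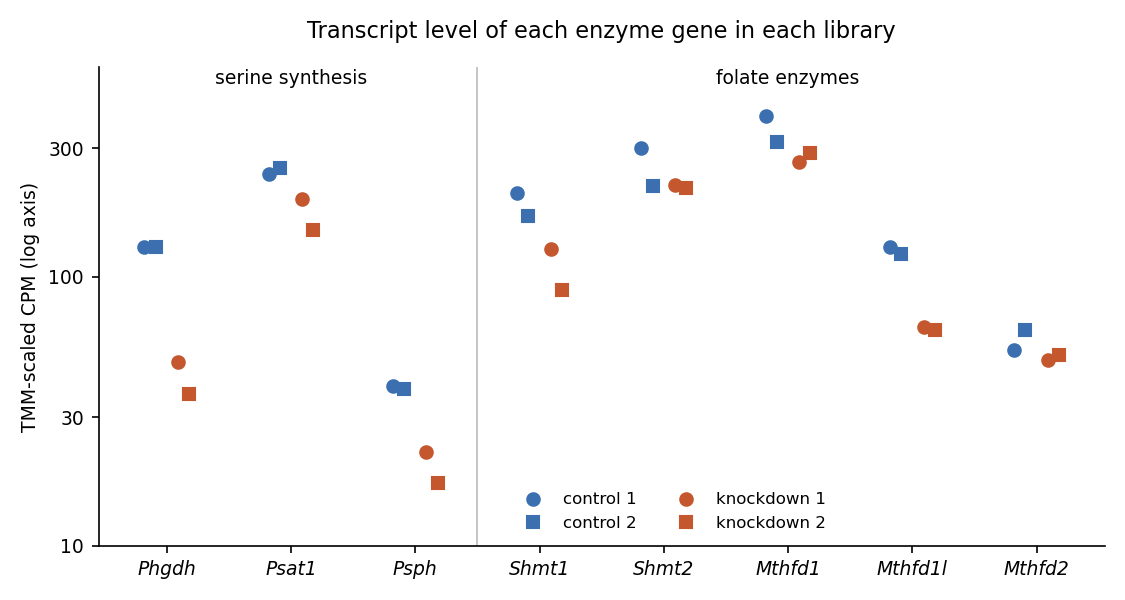
TMM-scaled CPM (vertical axis, log scale) of each of the 8 genes in each library, blue for control and orange for knockdown, circles for replicate 1 and squares for replicate 2. The orange points lie below both blue points in 7 of the 8 genes, with the widest gap in Phgdh, and meet the lower control in Shmt2.

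The start regions of 2 members are shown because Phgdh had the largest decrease and Shmt2 was the member whose groups overlapped. Each is the run of 250 bases before the transcription start in the promoter table of RefSeq (GRCm38.p6), read 5′ to 3′ on the gene's own strand, which is the minus strand for both. Phgdh is at chr3:98339970-98340219 and Shmt2 at chr10:127522445-127522694. Capitals mark CCAAT, the pentamer bound by the factor NF-Y.
Phgdh: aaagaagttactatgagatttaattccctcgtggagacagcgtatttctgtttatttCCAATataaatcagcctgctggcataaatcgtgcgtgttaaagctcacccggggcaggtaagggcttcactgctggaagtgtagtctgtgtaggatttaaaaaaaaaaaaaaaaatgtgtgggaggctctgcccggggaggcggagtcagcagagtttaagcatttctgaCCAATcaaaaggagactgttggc
Shmt2: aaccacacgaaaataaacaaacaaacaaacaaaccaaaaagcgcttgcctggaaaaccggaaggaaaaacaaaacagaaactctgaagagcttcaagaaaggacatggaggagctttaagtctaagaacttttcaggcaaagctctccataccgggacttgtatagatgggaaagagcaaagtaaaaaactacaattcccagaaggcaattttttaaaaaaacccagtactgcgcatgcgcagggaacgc

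The 8 members had 9 entries in that table, with 2 for Psat1. Both strands of the 250 bases before each start were searched for CCAAT, for CACGTG (the canonical E-box of MYC), for TGATGNAA (the core of the amino acid response element of ATF4) and for ACGTG (the core of the hypoxia response element, which lies inside the E-box). The CCAAT pentamer was found in 6 of the 9 regions, against 33.8% of 32851 promoters, in Phgdh, Psph, Shmt1, Mthfd1, Mthfd2 and 1 of the Psat1 entries. CACGTG was found in 0 of 9 (6.02% of all promoters) and TGATGNAA in 0 of 9 (3.45%). ACGTG was found in 2 of 9 (16.6%), in Psph and in Mthfd1l. A match is a run of letters and not a measured site. The site nearest to the start is given below for the members with a match, with the flanking 10 bases on each side, read in the direction that spells the motif in capitals, CCAAT in the first 6 lines and ACGTG in the last (the ACGTG of Psph, 149 bases before the start, is not shown).
Phgdh: gcatttctgaCCAATcaaaaggaga
Psat1: tgagcgagagCCAATcagtgagcgg
Psph: ttggattaagCCAATcagcgggcgg
Shmt1: ctacagcggcCCAATcagtgggagc
Mthfd1: tcgcttttagCCAATcagagatagt
Mthfd2: ggctcaggggCCAATgggcgcgcgg
Mthfd1l: gggccagcggACGTGaagcttttgg

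This nearest CCAAT sits 19 bases before the table's start in Phgdh, 2 in Psat1, 44 in Psph, 43 in Shmt1, 65 in Mthfd1 and 18 in Mthfd2. Both Phgdh, which fell, and Mthfd2, which was not called, carry it, while Mthfd1l, which fell, does not in this window. In Psph, Mthfd1, Mthfd1l and Mthfd2 the table's start lies inside the gene span given below, not at its outer end. The window of Mthfd2 is chr6:83317605-83317854, in a minus-strand gene that spans 83305704 to 83326011.

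Phgdh lies on chromosome 3 from 98313171 to 98339969 (mm10, RefSeq). It stood at 128.8 CPM in control 1 and 128.8 CPM in control 2, and at 48.3 and 36.6 CPM in knockdown 1 and 2. The controls nearly coincided, and both knockdown libraries were far below them. The group means were 128.8 ± 0.0041 CPM and 42.5 ± 8.27 CPM (SD, n = 2 each). The SD of the controls, here and per kilobase below, comes from counts of 2437 and 2482. It is smaller than sampling noise at such counts and is no measure of precision. The log2 fold change came to -1.60 (SE 0.20), with a 95% interval of -2.06 to -1.14 and an edgeR adjusted p of 0.0173. Phgdh was called in each of the 11 alternative fits, and its adjusted p came closest to the threshold without knockdown replicate 2, at 0.049 for a log2 fold change of -1.41. Ordered by p, it was gene 38 of 16209. Its counts carry a limit of their own: transcripts of 23 other annotated genes, 20 of them processed pseudogenes, matched Phgdh over at least 150 bases at 90.4% to 98.7% identity. Only 2 of these have a row in the count table, with 0 counts, and how reads that map to several places were treated is not given in the sources used here, so the level of Phgdh is uncertain to the extent that such reads were shared or dropped.

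Psat1, on chromosome 19 from 15905123 to 15925059, encodes the aminotransferase of the middle step. It was at 241 and 254 CPM in controls, against 194 and 150 CPM with knockdown. The groups did not overlap, but the knockdown libraries were further apart than the controls. This gave a log2 fold change of -0.52 (SE 0.19) with a 95% interval of -0.96 to -0.09 (edgeR adjusted p = 0.181). A processed pseudogene matches Psat1 at 91.0% identity. Psat1 was called in 0 of the 11 alternative fits, where its value ran from -0.73 to -0.35.

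Psph, on chromosome 5 from 129765558 to 129787443, encodes the phosphatase of the last step. It was at 39.2 and 38.2 CPM in controls, against 22.3 and 17.1 CPM with knockdown. Again the controls were close together and the knockdown libraries both lower. The log2 fold change came to -0.97 (SE 0.23) with a 95% interval of -1.50 to -0.44 (edgeR adjusted p = 0.0781). The call was made with DESeq2 (adjusted p = 0.00942) and without a filter on low counts, and in none of the other 9 alternative fits. Exons of Psph share 452 bases, 10.4% of its exon length, with those of Cct6a on the opposite strand, and reads from there cannot be assigned if the counting ignored strand. Cct6a had a log2 fold change of -0.46 at 673 CPM in the controls.

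The 3 serine synthesis genes therefore had log2 fold changes of -1.60, -0.52 and -0.97 in the order of the pathway. In each of them knockdown 2 was lower than knockdown 1, an order whose share among all tested genes was not computed.

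**Figure D2:**
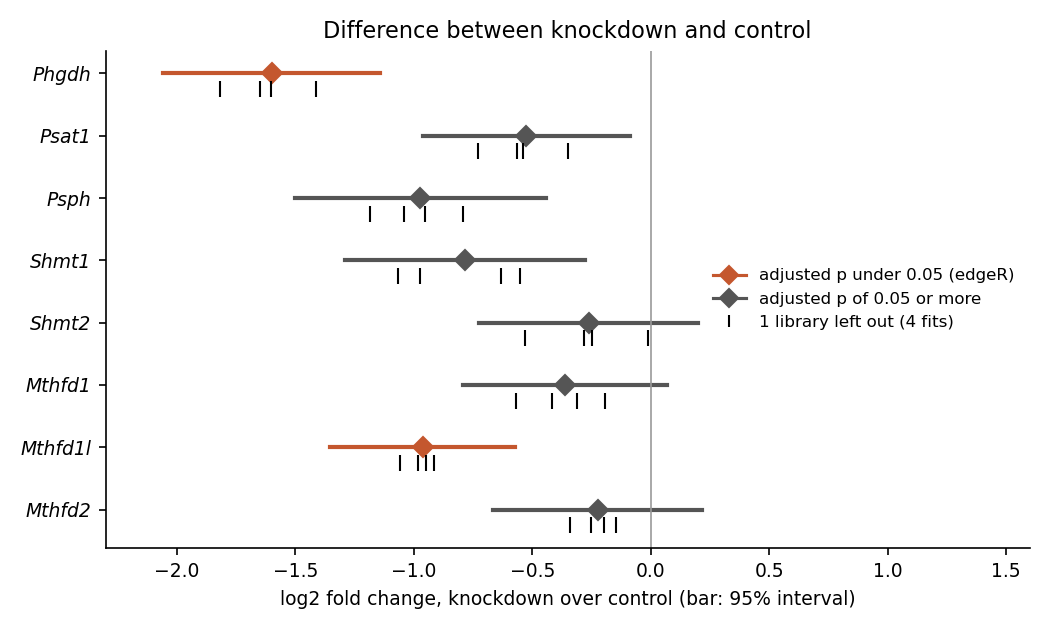
Log2 fold change of each gene, knockdown over control (diamond), with its 95% interval (bar) from edgeR's quasi-likelihood fit, and the 4 values with 1 library left out (ticks). Phgdh at -1.60 and Mthfd1l at -0.96, in orange, passed the adjusted p of 0.05. The intervals of Shmt2, Mthfd1 and Mthfd2 include 0.

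Of the hydroxymethyltransferases, the cytosolic Shmt1 had a larger log2 fold change than the mitochondrial Shmt2, and neither passed the test. Shmt1, on chromosome 11 from 60788897 to 60811265, was at 205 and 168 CPM in controls, against 127 and 89.3 CPM with knockdown. The groups were apart, with a similar spread inside each of them. This gave a log2 fold change of -0.78 (SE 0.22) with a 95% interval of -1.29 to -0.28 (edgeR adjusted p = 0.110). It passed with DESeq2 (adjusted p = 0.0326), without a filter on low counts and with the replicate number as a block (edgeR adjusted p = 0.0478). Exons of Shmt1 share 184 bases, 4.74% of its exon length, with those of Smcr8 on the opposite strand, whose log2 fold change was 0.82 (edgeR adjusted p = 0.0557).

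Shmt2, on chromosome 10 from 127517123 to 127522444, was at 301 and 217 CPM in controls, against 218 and 214 CPM with knockdown. It was the 1 member whose groups overlapped, since knockdown 1 lay above control 2. The log2 fold change came to -0.26 (SE 0.20) with a 95% interval of -0.73 to 0.20 (edgeR adjusted p = 0.519). A processed pseudogene matches Shmt2 at 90.1% identity. The value rested on control 1, and was -0.01 without that library and -0.53 without control 2.

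The count ratio of Shmt2 to Shmt1 within a library needs no scaling between libraries. It was 1.47 and 1.30 in controls, against 1.72 and 2.39 with knockdown. The knockdown ratios were above both control ratios. On the log2 scale the difference was 0.56, for which an exact two-sided permutation test over the 4 libraries gave p = 0.333, the smallest value that 2 libraries against 2 allow. Without knockdown replicate 2 the difference was 0.32.

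Mthfd1, on chromosome 12 from 76254406 to 76319820, encodes the cytosolic trifunctional enzyme. It was at 396 and 316 CPM in controls, against 267 and 288 CPM with knockdown. The groups did not overlap, and the controls differed from each other by more than control 2 differed from knockdown 2. This gave a log2 fold change of -0.36 (SE 0.19) with a 95% interval of -0.79 to 0.07 (edgeR adjusted p = 0.331), which was -0.19 without control 1. Its exons share 37 bases with Gm47525 on the opposite strand.

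Mthfd1l, on chromosome 10 from 3972892 to 4167081, was at 129 and 121 CPM in controls, against 64.9 and 63.6 CPM with knockdown. Libraries of a group agreed closely and the groups were well apart. The means were 125 ± 5.73 CPM and 64.3 ± 0.94 CPM (SD, n = 2 each). The log2 fold change came to -0.96 (SE 0.17), with a 95% interval of -1.35 to -0.57 and an edgeR adjusted p of 0.043. The size hardly depended on any library, at -1.06 to -0.92 in the fits that left out 1 library. The call did: the edgeR adjusted p was 0.135 without knockdown 1, 0.213 without knockdown 2 and 0.0523 with library totals in place of TMM. Among the members, Mthfd1l (adjusted p = 0.043) was just inside the threshold and Psph (adjusted p = 0.0781) just outside it.

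Mthfd2, on chromosome 6 from 83305704 to 83326011, encodes the mitochondrial dehydrogenase and cyclohydrolase, which is low in most adult tissues and high in embryos. It was at 53.5 and 63.3 CPM in controls, against 49.0 and 51.0 CPM with knockdown. The groups did not overlap, but the gap between them was smaller than the gap between the controls. This gave a log2 fold change of -0.22 (SE 0.19) with a 95% interval of -0.66 to 0.22 (edgeR adjusted p = 0.563).

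The ratio of Mthfd1l to Mthfd1 counts was 0.326 and 0.383 in controls, against 0.243 and 0.221 with knockdown. Both knockdown libraries lay below both controls, and the log2 difference was -0.61 (exact two-sided permutation p = 0.333, again the smallest possible). The ratio of Mthfd2 to Mthfd1 was 0.135 and 0.200 in controls, against 0.184 and 0.177 with knockdown, so the knockdown libraries lay between the controls. Its log2 difference was 0.14 (exact two-sided permutation p = 1), and -0.15 without control 1. Adjusted by Benjamini-Hochberg over the 3 ratios, the exact permutation p-values were 0.5, 1 and 0.5 in the order Shmt2 over Shmt1, Mthfd2 over Mthfd1 and Mthfd1l over Mthfd1. Among the 3 mitochondrial enzymes, Mthfd1l alone was called, and whether its difference exceeds that of Shmt2 or Mthfd2 was not tested.

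**Figure D3:**
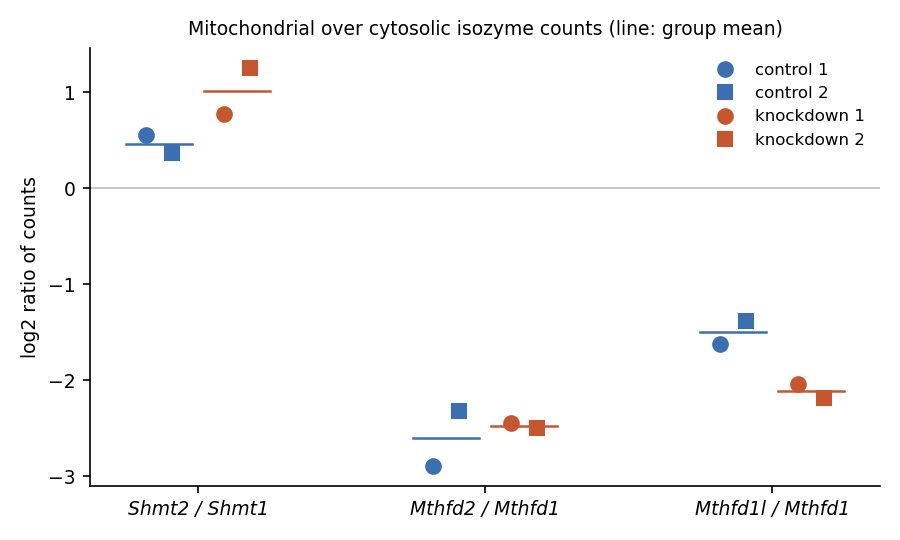
Log2 ratio of counts of a mitochondrial enzyme gene to a cytosolic one within each library (points), with the mean of each group (line). The knockdown libraries are above both controls for Shmt2 over Shmt1, below both for Mthfd1l over Mthfd1, and between them for Mthfd2 over Mthfd1.

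Levels of different genes were compared as CPM per kilobase of merged exons (GENCODE M21). In the controls Shmt2 was highest, at 83.3 ± 19.0 CPM per kilobase (SD, n = 2), followed by Mthfd1 at 80.2 ± 12.7, and their libraries overlapped. Psat1 at 58.2 ± 2.18 came next, then Phgdh at 51.8 ± 0.0016 and Shmt1 at 48.0 ± 6.82, which overlapped with each other. Mthfd1l at 28.2 ± 1.29, Mthfd2 at 16.7 ± 1.99 and Psph at 8.94 ± 0.17 followed without overlap. In the knockdown libraries Shmt2, Mthfd1 and Psat1 were again first, at 69.5 ± 1.09, 62.4 ± 3.38 and 40.4 ± 7.41 CPM per kilobase. Phgdh was at 17.1 ± 3.33, below Shmt1 at 27.9 ± 6.91 in both libraries, and Mthfd1l at 14.5 ± 0.21 overlapped with Mthfd2 at 14.3 ± 0.40. Psph was last in both groups, at 4.55 ± 0.86 with knockdown. The 8 genes together took 0.142% and 0.132% of all counts in controls, against 0.102% and 0.0913% with knockdown.

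The nearest tested gene on either side of each member, overlapping ones included, gave 16 neighbours. Of these 1 fell and 1 rose, where 0.555% of all tested genes were called lower and 0.876% higher. Their log2 fold change was negative in 10 and positive in 6, with a median of -0.14. Shmt2 lies between Ndufa4l2, a hypoxia-inducible mitochondrial gene, and Nxph4, a gene for a secreted neurexophilin. Ndufa4l2 fell from 22.4 to 1.80 CPM (log2 fold change -3.64, edgeR adjusted p = 0.00967). Nxph4 was at 8.03 CPM in controls, against 1.77 CPM with knockdown (log2 fold change -2.18, edgeR adjusted p = 0.0589). Shmt2 between them was at 259 and 216 CPM. Its exons share 32 bases with those of Ndufa4l2 on the opposite strand, 1.03% of the exon length of Shmt2. Mthfd1l, which fell, is separated by 5589 bases from Plekhg1, a gene for a guanine nucleotide exchange factor, which rose from 18.5 to 80.6 CPM (log2 fold change 2.12, edgeR adjusted p = 0.0101). The neighbours of Phgdh, Notch2 (log2 fold change 0.27) and Zfp697 (0.88), did not pass the test.

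The genes whose pattern over the 4 libraries was nearest to that of Phgdh, by Euclidean distance of centred log2 CPM among 11037 genes at a mean of at least 5 CPM, were Slc38a3, Lefty1 and Gfod1, at distances of 0.063, 0.11 and 0.15. Slc38a3, which encodes an amino acid transporter, was at 12.6 and 11.9 CPM in controls, against 4.66 and 3.41 CPM with knockdown. Lefty1, which encodes a secreted NODAL inhibitor and has a close paralogue in Lefty2 that may share reads, was at 73.1 and 70.0 CPM and at 26.8 and 22.0 CPM. Gfod1 was at 20.7 and 20.0 CPM and at 8.48 and 5.59 CPM. With 4 libraries such a likeness describes only the gap between groups and the order within them.

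Upstream of the set, Pgk1, whose product makes 3-phosphoglycerate, fell from 1216 and 1124 CPM to 286 and 277 CPM (log2 fold change -2.05, edgeR adjusted p = 0.00967). Pgam1, whose product draws 3-phosphoglycerate down glycolysis in competition with PHGDH, was at 1011 and 780 CPM in controls, against 617 and 651 CPM with knockdown, a log2 fold change of -0.50 that did not pass (edgeR adjusted p = 0.221). Of 7 genes for glycolysis around this branch point, 1 fell and 0 rose (0.555% and 0.876% of all tested genes), and the median log2 fold change was -0.63. At an unadjusted p of 0.05 the edgeR count was 5 lower and 1 higher, against 8.58% and 11% of all tested genes. DESeq2 called 3 lower (Pgk1, Eno1 and Pkm, the last 2 named after their values were seen) and 0 higher. It called 3.18% of all tested genes lower and 3.89% higher. The median was -0.39 without control replicate 1 and -0.89 without control replicate 2.

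In the amino acid starvation response, 1 regulator rose. Atf5, which encodes a transcription factor translated under the same stress, rose 5.64-fold, from 15.5 and 24.0 CPM to 124 and 98.9 CPM, with a log2 fold change of 2.50 and a standard error of 0.26 (edgeR adjusted p = 0.0101). Atf4 was at 201 and 180 CPM in controls, against 348 and 324 CPM with knockdown. Its groups were apart in the direction opposite to the enzymes, and its log2 fold change of 0.82 did not pass (edgeR adjusted p = 0.0589), although it did with DESeq2 (adjusted p = 0.0114). Of 17 tested genes in this list 1 rose and 0 fell (0.876% and 0.555% of all tested genes), and the median log2 fold change was 0.35. The median was 0.19 without knockdown replicate 1, 0.60 without knockdown replicate 2 and 0.23 with DESeq2. At an unadjusted p of 0.05 the edgeR count was 6 higher and 2 lower. Of all tested genes, 11% were higher and 8.58% lower at that p. The higher ones were Atf4, Atf5, Ddit3 (log2 fold change 1.21), Trib3 (0.71), Sesn2 (0.90) and Cebpb (1.23, at 1.07 CPM in controls). The lower ones were Pycr1, which encodes a proline synthesis enzyme, and Eif2ak4, which encodes the starvation-sensing kinase GCN2. DESeq2 called 3 higher (Atf4, Atf5 and Ddit3) and 1 lower (Pycr1), against 3.89% and 3.18% of all tested genes. Apart from Atf4 and Atf5, these genes are named after their values were seen. So is Asns, the asparagine synthetase gene. It was at 281 and 395 CPM in controls, against 274 and 150 CPM with knockdown (log2 fold change -0.67, edgeR adjusted p = 0.267). Of the 17 tested genes of this list, 12 had a positive log2 fold change and 5, Asns among them, a negative one. Over all tested genes 49.5% were negative. Myc, which encodes a growth regulator known to act on several of these enzymes, was at 57.5 and 32.7 CPM in controls, against 42.1 and 49.4 CPM with knockdown. The knockdown values lay between the controls (log2 fold change 0.02, edgeR adjusted p = 0.978), and the sign turned with RLE and upper-quartile scaling.

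Downstream, some steps of purine and thymidylate synthesis use the folate units. The list taken here is wider, and holds genes of nucleotide synthesis whose steps use none, such as Paics, Prps1, Prps2, Cad, Dhodh, Umps, Tk1, Rrm1 and Rrm2. In it edgeR called 0 of 19 genes. At an unadjusted p of 0.05 the edgeR count was 12 lower and 0 higher, against 8.58% and 11% of all tested genes. DESeq2 called 5 lower and 0 higher, against 3.18% and 3.89% of all tested genes. Those 5, named after their values were seen, were Gart, Paics, Prps1, Tk1 and Dhodh. Of these, only Gart has a step that uses a folate unit. Both knockdown libraries were below both controls in 16 of the 19 genes, as in 24.6% of all tested genes, and above both in 0. The median log2 fold change was -0.57. In the other connected lists such genes went in both directions. The counts lower and higher were 6 and 3 of 17 (folate), 7 and 8 of 19 (glycine) and 5 and 4 of 14 (methionine). They were 4 and 8 of 17 for amino acid starvation and 5 and 1 of 7 for glycolysis. Over all 16209 tested genes they were 3984 and 4428. Paics, for a bifunctional enzyme of purine synthesis, was at 602 and 599 CPM in controls, against 364 and 324 CPM with knockdown (log2 fold change -0.80, edgeR adjusted p = 0.0649). Impdh2, for the enzyme that opens guanine nucleotide synthesis, was at 580 and 534 CPM and at 419 and 363 CPM (log2 fold change -0.51, edgeR adjusted p = 0.174). Gart, whose product takes formyl groups from folate directly, was at 639 and 511 CPM and at 293 and 314 CPM (log2 fold change -0.92, edgeR adjusted p = 0.0569).

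Of 17 further genes listed for folate reduction, interconversion and uptake, edgeR called 0, with 3 lower and 2 higher at an unadjusted p of 0.05. DESeq2 called 1 lower (Qdpr) and 1 higher (Folr1, named after its value was seen), and the median log2 fold change was -0.12. Of all tested genes, 8.58% were lower and 11% higher at that p, and DESeq2 called 3.18% lower and 3.89% higher. The same shares apply to the lists that follow. Qdpr encodes dihydropteridine reductase, which recycles biopterin and is not an enzyme of the folate cycle itself. It was at 136 and 110 CPM in controls, against 61.6 and 65.5 CPM with knockdown (log2 fold change -0.96, edgeR adjusted p = 0.0524). Tyms, for thymidylate synthase, was at 92.8 and 77.4 CPM and at 78.6 and 88.5 CPM, with overlapping groups. Of 19 genes for glycine cleavage and for the transport and use of serine and glycine, edgeR called 0, with 5 lower and 3 higher at an unadjusted p of 0.05 and 2 lower (Gldc and Gcat, the latter named after its value was seen) and 0 higher by DESeq2. The median was -0.12, and 0.0055 without control replicate 2. Gldc, the decarboxylase of glycine cleavage, was at 315 and 155 CPM in controls, against 93.7 and 114 CPM with knockdown (log2 fold change -1.18, edgeR adjusted p = 0.1), with a value of -0.58 without control 1. Slc38a2, for a neutral amino acid transporter, was at 505 and 408 CPM and at 631 and 562 CPM (log2 fold change 0.39, edgeR adjusted p = 0.311). Of 14 tested genes of the methionine cycle and transsulfuration, edgeR called 0, with 4 lower and 1 higher at an unadjusted p of 0.05 and 1 lower (Ahcy) and 0 higher by DESeq2, and the median was -0.34. Ahcy, which clears the product of methylation reactions, was at 313 and 264 CPM and at 192 and 171 CPM (log2 fold change -0.67, edgeR adjusted p = 0.101). Mat2a, which makes the methyl donor, was at 248 and 369 CPM and at 308 and 312 CPM, between the controls.

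**Figure D4:**
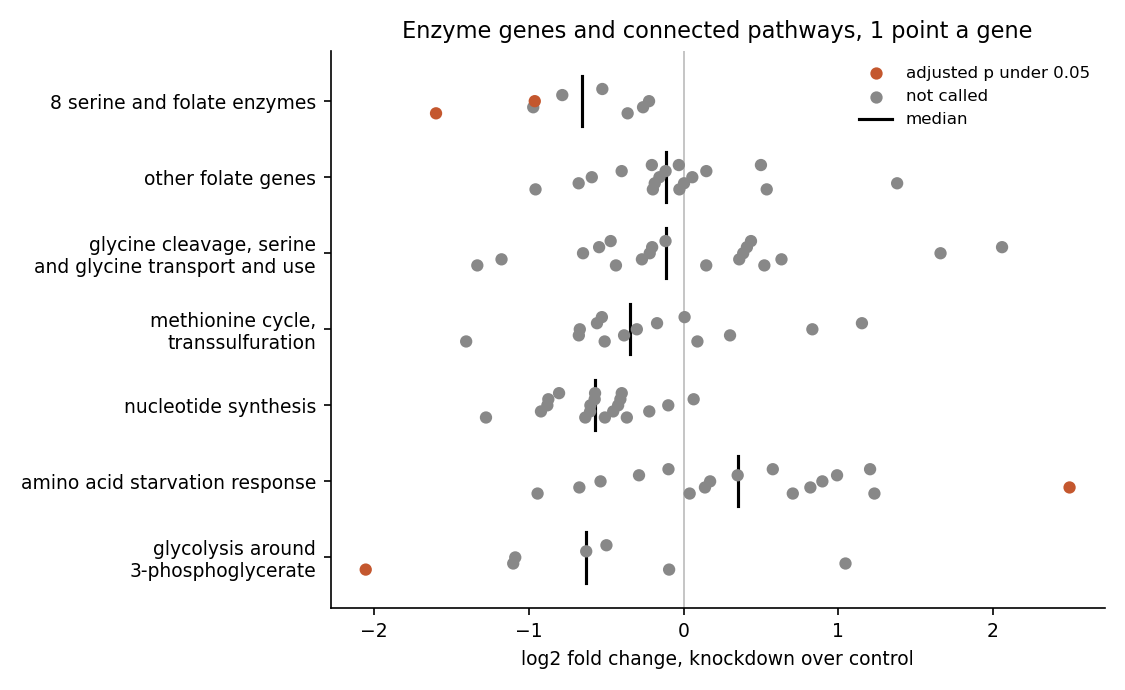
Log2 fold change, knockdown over control, of every tested gene in the 8-gene set and in 6 connected lists (points), with the median of each list (black line), called genes in orange. The medians of the 8 genes (-0.65), the other folate genes (-0.12), the glycine list (-0.12), the methionine cycle (-0.34), nucleotide synthesis (-0.57) and glycolysis (-0.63) are below 0 and that of the amino acid starvation response (0.35) is above it.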

How the data were processed

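A single table of raw counts for 4 libraries, 1 row a gene symbol, was deposited. Reads were handled with cutadapt, HISAT2 and featureCounts on mm10, per the submitters' processing notes. The sources used here give no versions, annotation, strand setting or treatment of multi-mapping reads. Of 36068 rows, 92 spike-in rows held 0 counts and were left out, and 27 rows with a date as symbol stayed in the totals unnamed. Genes were filtered with filterByExpr, scaled by TMM and compared by edgeR 4.0.16 (R 4.3.3) with the quasi-likelihood F-test, group as the only term, and Benjamini-Hochberg adjustment over all 16209 tested genes. Standard errors (SE) are the absolute log2 fold change over the root of F, and 95% intervals use the t quantile on the fit's total degrees of freedom. Near-identical transcripts were sought with BLAST in GENCODE M21 transcripts, and positions and promoters come from RefSeq GRCm38.p6, the same build as mm10. The members, lists and motifs were chosen with earlier results of these data known. The genes named are the members, Pgk1, Pgam1, Atf4 and Myc, up to 3 called genes per list by p or else the 2 most abundant, the 3 genes nearest in pattern to the top member, genes flanking or overlapping a member (chosen for this after their values were seen), and those marked as named after their values were seen. The procedure was run on counts simulated with the means and dispersions of the same fit. That simulation held no batch and no reads shared between genes, so it cannot show whether the calls here are right. Replicates differed beyond sampling noise (chi-square over its degrees of freedom 45.6 between controls, 21.3 between knockdown libraries), and none were merged. Alternatives were 3 scalings, 2 filters, DESeq2 1.42.0, the replicate block and leaving out each library. A share of all tested genes given for an alternative is of the genes tested in that fit. These were 15211 with DESeq2 and 26525 without a low-count filter, and also differed from 16209 with 1 library left out. Fits with 1 library left out take the spread from the group that still has 2, and assume that the single library shares it.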

Additional observations from a re-analysis of the deposited data

How the results depend on the processing

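Across the 11 alternatives the 8 enzyme genes kept a negative log2 fold change, and members called higher stayed at 0. Members called lower, 2 in the reported fit, were 1 with library totals, 4 without a low-count filter, 4 with DESeq2 and 1 to 2 with 1 library left out. Genes called lower, 90 in the reported fit, were 57 with library totals, 721 without a filter, 483 with DESeq2, 228 with the replicate block and 45 to 198 with 1 library left out. Genes called higher, 142 in the reported fit, were 996 without a filter, 591 with DESeq2, 428 with the replicate block and 108 to 389 with 1 library left out. The cause of these differences was not tested. With the replicate block 3 members were called, Shmt1 at -0.80 besides Phgdh and Mthfd1l, on 1 residual degree of freedom.

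The replicate numbers had no stated meaning, and deviations of same-numbered libraries correlated at -0.05 across genes, so the numbers were not taken as pairs. Genes near 0 changed sign. Myc was -0.0060 with RLE factors, -0.0078 with upper-quartile factors, -0.00035 without a filter, -0.019 with DESeq2 and -0.38 to 0.48 with 1 library left out. Tyms was 0.025 with library totals and -0.20 to 0.11 with 1 left out. Mat2a was -0.012 with RLE factors, -0.029 with upper-quartile factors, -0.0055 without a filter, -0.018 with DESeq2 and -0.26 to 0.27 with 1 left out. The log2 ratio difference with 1 library left out was 0.32 to 0.80 for Shmt2 over Shmt1, -0.15 to 0.42 for Mthfd2 over Mthfd1 and -0.72 to -0.49 for Mthfd1l over Mthfd1. With 281 counts or more per member and library, 2 libraries a group set the precision.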
